A study of Oryctolagus cuniculus with 12 samples.

Results

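KCNJ8 and ABCC9 encode the pore (Kir6.1) and the regulatory subunit (SUR2) of ATP-sensitive potassium channels, and their transcripts were followed in ventricles of fetal rabbit hearts. The array calls them KIR6.1 and SUR2A, and current symbols were assigned through the transcript each probe was designed on. They were measured by 8 of the 43603 probes, 5 for KCNJ8 and 3 for ABCC9, and they are 2 of the 591 genes with a name here. All probes of the 2 genes were taken, by gene name and not by level or difference. The genes themselves were chosen with earlier results of these data known. The hearts came from 6 IUGR fetuses (intrauterine growth restriction, poor growth in the womb) and 6 control fetuses, numbered as 6 pairs of an IUGR and a control heart. The sample titles call the IUGR hearts treatment, and the sources used here do not give how growth restriction was produced, the gestational age or what joins a pair. All 12 samples were total RNA of snap-frozen ventricles, 500 ng each, with RNA integrity numbers from 9.3 to 9.9, read with the dye Cy3 on Agilent arrays of rabbit transcripts, 1 array a heart. Separate litters are not named in the labels, and p-values therefore cover the spread between these pairs only.

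An ATP-sensitive potassium channel joins pore subunits of the Kir6 family with sulfonylurea receptor subunits, which belong to the ABC transporter superfamily. In general terms, ATP acts to close the pore and ADP bound to the receptor to open it. The channel thereby ties the membrane potential to the energy state of the cell. The gating of the Kir6.1 pore in particular was not measured here. In mouse and human vessels, Kir6.1 with the SUR2B splice form is the main channel of smooth muscle and pericytes and relaxes the vessel wall when it opens. In the mouse ventricle, the channel of the heart muscle cell is built mostly from Kir6.2, encoded by KCNJ11, with the SUR2A splice form. Both splice forms come from ABCC9, and which of them a probe reads was not determined here, although the array's name is that of the SUR2A form. In the rabbit RefSeq assembly mOryCun1.1 the genes KCNJ8 and ABCC9 are neighbours on the same chromosome, with 0 annotated genes between them.

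The deposited values were log2 probe signals with a median probe mean of 4.61 and a highest value of 15.83. Correlations between arrays, taken across probes as a description, ran from 0.957 to 0.978. The arrays of pairs 1 and 2, of pairs 3 and 4 and of pairs 5 and 6 resembled each other more than arrays of other sets did (the correlation of their deviations from the probe means was 0.01 on the mean between pairs of a set and -0.14 between sets), and differences within these sets are given beside the results. Of the cardiomyocyte markers, CKM, MYH6 and RYR2 were among the brightest probes (percentiles 99.8, 99.2 and 97.4 of all levels), HRC and TRDN stood lower (percentiles 73.6 and 59.9), and the ventricular markers MYH7 and MYL2 had no named probe. Of the atrial markers, NPPA was also bright, at percentile 94.8, and GJA5 and SLN stood lower (percentiles 75 and 57.5). Of the lung markers, SFTPB was bright, at percentile 93.3, and SCGB1A1 was dim, at percentile 31.8. Of the skeletal muscle fibre markers, TNNC2 and MYH1 were bright (percentiles 99.2 and 90.8). TNNI2, CACNA1S and ACTN3 stood lower (percentiles 52.7, 31.9 and 27.8). Every difference is given as IUGR minus control on the log2 scale, and its ± is the SD over n = 6 pairs unless stated otherwise.

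The first comparison asked whether the pore subunit transcript differs between growth-restricted and control ventricles. KCNJ8 was slightly higher in IUGR ventricles, by 0.15 ± 0.08, a 1.11-fold difference, and the IUGR heart was above its control in 6 of 6 pairs. The probe that stands for the gene is the one with the highest mean over all 12 arrays (A_04_P001537, probe 2). In pairs 1 to 6 its signal was 9.49, 9.42, 9.63, 9.46, 9.66 and 9.76 in the IUGR hearts, against 9.45, 9.20, 9.50, 9.35, 9.38 and 9.65 in the control hearts. Pair 6 held the highest heart of either group and pair 2 the lowest of either group. The groups overlapped: 2 of 6 IUGR hearts lay above the highest control heart, and 3 of 6 control hearts lay below the lowest IUGR heart. The group means were 9.57 ± 0.13 in IUGR and 9.42 ± 0.15 in control ventricles (SD, n = 6 each), and the difference was more regular within pairs than between groups. It was smallest in pair 1, at 0.05, and largest in pair 5, at 0.28.

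KCNJ8 did not pass the test across all probes. In the limma fit with the pair as a block, the unadjusted p was 0.158 and the Benjamini-Hochberg adjusted p was 0.982, with a 95% interval from -0.07 to 0.37, that is 0.95-fold to 1.29-fold. In that comparison 0% of the 43603 probes passed the adjusted threshold of 0.05 and 3.58% had an unadjusted p under 0.05. The exact two-sided test over the 64 sign changes of the 6 pairs gave p = 0.03125 for KCNJ8. This is the smallest value 6 pairs allow, and it is not adjusted for the number of probes or the choice of gene. A probe was higher in IUGR in 6 of 6 pairs for 1.31% of all probes, and for 1.39% of those at or above the median level. The limma standard error of 0.094 was larger than the 0.0341 given by the 6 differences alone, because limma moves the variance of each probe towards a value estimated from all of them. The SD over pairs of the KCNJ8 probe was smaller than that of nearly all bright probes: 1.22% of the probes at or above the median level had a smaller one.

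**Figure D1:**
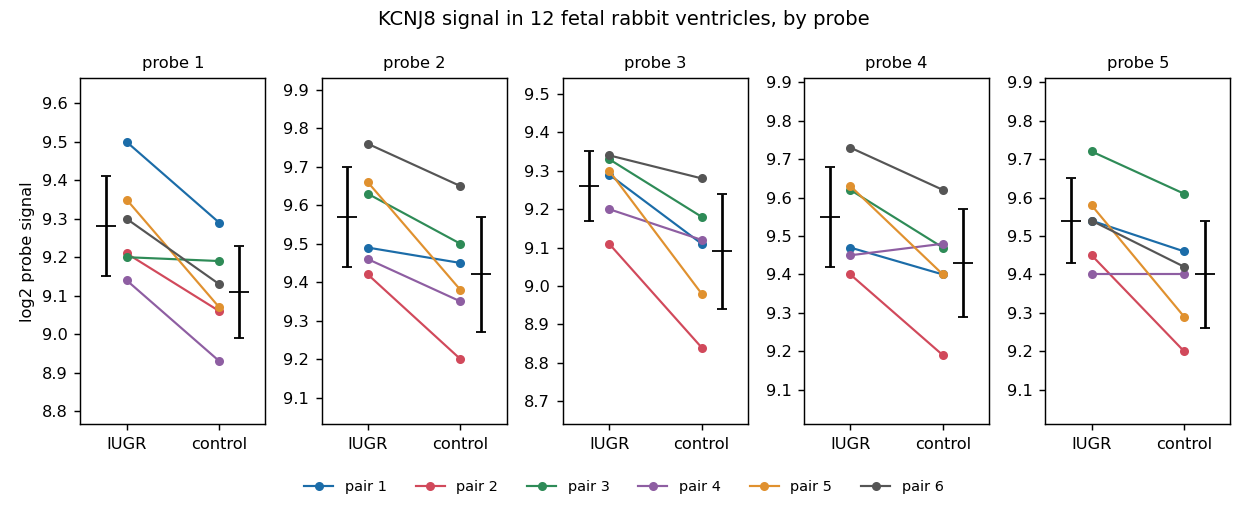
KCNJ8 log2 probe signal of the 12 hearts for each of its 5 probes, with IUGR on the left and control on the right of each panel. Lines join the hearts of a pair, horizontal bars with whiskers are the group mean ± SD (n = 6), and the height of every panel spans the same log2 range. Nearly all lines slope down towards the control heart, while the groups overlap on every probe; probe 2, the brightest, ran from 9.42 to 9.76 in IUGR and from 9.20 to 9.65 in control hearts.

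The other KCNJ8 probes gave the same direction. Probe 1 (A_04_P001536) had a lowest, median and highest signal of 9.14, 9.26 and 9.50 in IUGR hearts, against 8.93, 9.10 and 9.29 in control hearts, and differed by 0.17 ± 0.09. Probe 3 (A_04_P001538) had 9.11, 9.29 and 9.34 in IUGR hearts, against 8.84, 9.11 and 9.28 in control hearts, and differed by 0.18 ± 0.10. On both of these probes the IUGR heart was higher in 6 of 6 pairs, although in pair 3 probe 1 differed by only 0.00494. Probe 4 (A_04_P001539) had 9.40, 9.54 and 9.73 in IUGR hearts, against 9.19, 9.44 and 9.62 in control hearts, and differed by 0.12 ± 0.10. Probe 5 (A_04_P001540) had 9.40, 9.54 and 9.72 in IUGR hearts, against 9.20, 9.41 and 9.61 in control hearts, and differed by 0.14 ± 0.11. Probes 4 and 5 were higher in 5 of 6 pairs, and their exceptions, -0.03 and -0.00353, both fell in pair 4. The groups overlapped on all 5 probes, where 0.0505% of all probes had groups that did not.

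Counted over probes and pairs, 28 of 30 KCNJ8 differences were above 0 and 2 were below. The 5 probes read 1 transcript in the same hearts, so these are not 30 separate observations. Probe differences ran from 0.24 to 0.31 in pair 5, from 0.16 to 0.27 in pair 2, and from -0.03 to 0.21 in pair 4. All 5 probes were higher in IUGR in pairs 1, 2, 3, 5 and 6, and pair 4 was the one in which probes disagreed in sign. The unadjusted limma p of the 5 probes ran from 0.108 to 0.233, and each had an adjusted p of 0.982. With the mean of the 5 probes the difference was 0.15 ± 0.08, from 0.07 in pair 4 to 0.28 in pair 5. The brightest probe differed by 0.13 over pairs 1 and 2, by 0.12 over pairs 3 and 4, and by 0.20 over pairs 5 and 6.

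**Figure D2:**
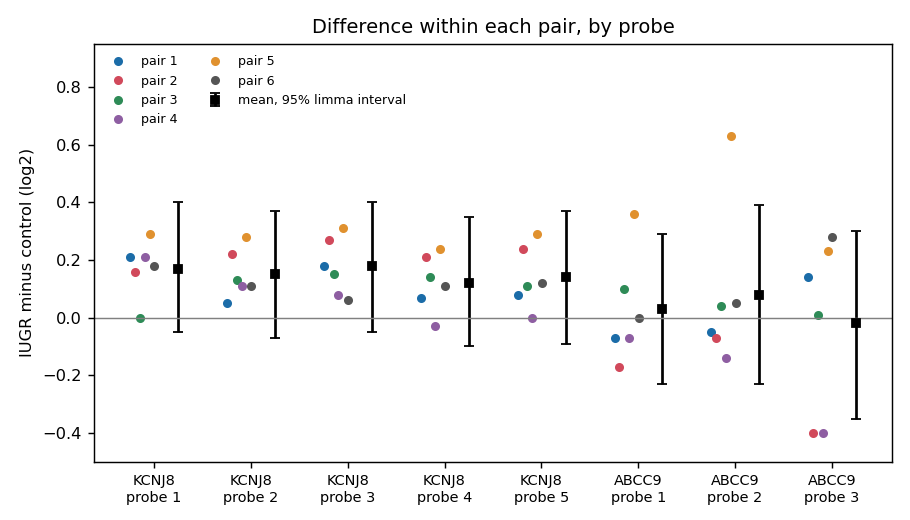
Difference within each of the 6 pairs (IUGR minus control, log2) for the 5 KCNJ8 and 3 ABCC9 probes; each point is a pair, and black squares with whiskers are the mean and its 95% interval in the limma fit. KCNJ8 points lie between -0.03 and 0.31 and ABCC9 points between -0.40 and 0.63; every interval includes 0.

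The second comparison asked the same of the regulatory subunit. ABCC9 showed no regular difference: its brightest probe (A_04_P002761, probe 1) differed by 0.03 ± 0.19, a 1.02-fold difference, with 3 pairs higher and 3 lower in IUGR. In pairs 1 to 6 the signal was 10.88, 11.02, 11.32, 11.27, 11.27 and 10.90 in the IUGR hearts, against 10.95, 11.20, 11.23, 11.33, 10.91 and 10.90 in the control hearts. The ranges of the groups nearly coincided. The 4 hearts of pairs 3 and 4 lay close together at 11.23 to 11.33, while the hearts of pair 5 were far apart, at 11.27 in IUGR and 10.91 in control. The means were 11.11 ± 0.20 in IUGR and 11.09 ± 0.19 in control ventricles (SD, n = 6 each). The limma interval ran from -0.23 to 0.29, or 0.85-fold to 1.22-fold (adjusted p = 0.99), and the exact sign-change test gave p = 0.78125. That interval includes 0.15, the difference measured for KCNJ8. Pair 5 carried the largest difference, 0.36, and without that pair the mean was -0.04.

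The other ABCC9 probes varied more between pairs. Probe 2 (A_04_P002762) had a lowest, median and highest signal of 10.31, 10.52 and 10.81 in IUGR hearts, against 10.18, 10.48 and 10.71 in control hearts, and differed by 0.08 ± 0.28. Pair 5 stood apart on it with a difference of 0.63, since that pair held the highest IUGR heart and the lowest control heart, and the mean was -0.03 without pair 5. Probe 3 (A_04_P084232) had 8.02, 8.18 and 8.33 in IUGR hearts, against 7.90, 8.19 and 8.52 in control hearts, and differed by -0.02 ± 0.31, or by 0.05 without pair 2 or without pair 4. On probe 3 the spread of the IUGR hearts (SD 0.11) was narrower than that of the control hearts (SD 0.25), and this gap was not tested. All 3 probes were higher in IUGR in pairs 3, 5 and 6 and lower in pairs 2 and 4, and in pair 1 they disagreed. In total 10 of 18 probe differences were above 0. Its brightest probe differed by -0.12 over pairs 1 and 2, by 0.01 over pairs 3 and 4, and by 0.18 over pairs 5 and 6.

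**Figure D3:**
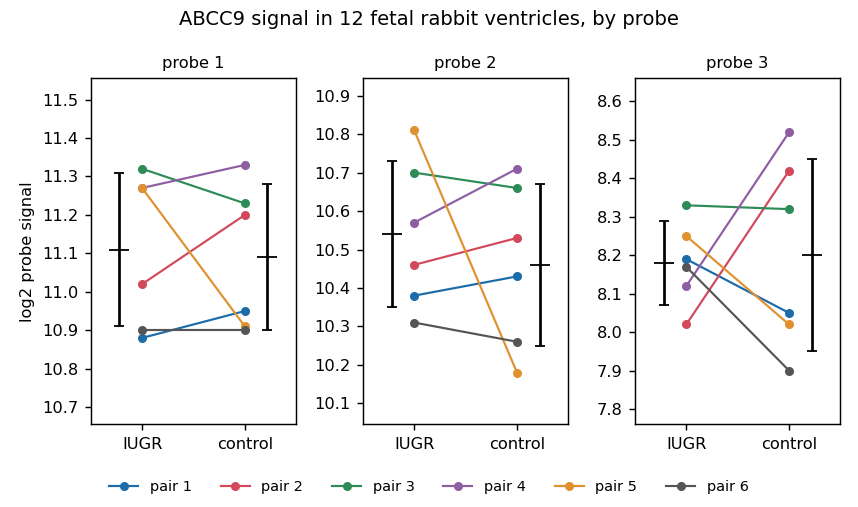
ABCC9 log2 probe signal of the 12 hearts for each of its 3 probes, with IUGR on the left and control on the right, lines joining pairs and bars showing the group mean ± SD (n = 6). Lines run both up and down and pair 5 has the steepest fall towards control on probes 1 and 2; group means on probe 1 were 11.11 in IUGR and 11.09 in control hearts.

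Whether the subunits differed in their response was tested directly. The KCNJ8 difference exceeded the ABCC9 difference by 0.12 ± 0.16, in 5 of 6 pairs, with pair 5 as the exception. The exact sign-change test gave p = 0.0938, or 0.281 adjusted over the 3 tests that set KCNJ8 against ABCC9, which does not pass the threshold of 0.05. With the mean of all probes of each gene the gap was 0.13 ± 0.20 (exact p = 0.219), and without pair 2 it was 0.07.

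No relation between the levels of the subunits across hearts was detected. Over the 12 hearts the brightest probes gave a Pearson r of -0.18 (permutation p = 0.562) and a Spearman rho of -0.17 (permutation p = 0.587), with an adjusted p of 0.562 for r over the 3 tests. Without the 2 hearts farthest from the KCNJ8 median, the IUGR heart of pair 6 and the control heart of pair 2, r was 0.12. It was also above 0, at 0.20, without pair 6. Partner hearts resemble each other, so the 12 hearts are not fully independent. After subtracting the mean of each pair r was 0.38, given with no p because partner values then mirror each other. After subtracting the mean of each set of 4 arrays r was -0.23. Over the 6 differences r was 0.54 (exact permutation p = 0.267, adjusted 0.401) and rho was 0.37 (exact permutation p = 0.497). That relation rested on single pairs: it was -0.38 without pair 5 (exact permutation p = 0.558) and 0.96 without pair 2 (exact permutation p = 0.0167). These are the lowest and highest r when each of the 6 pairs was left out in turn, and neither p is adjusted for that choice.

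Across the 12 hearts, probes of the same gene mostly correlated more closely than probes of different genes, although the ranges overlapped. The 10 combinations of KCNJ8 probes correlated at 0.35 to 0.96 with a median of 0.71, and the 3 combinations of ABCC9 probes at 0.71 to 0.92. KCNJ8 probe 1 followed the other KCNJ8 probes least, at 0.35 to 0.57. The 15 combinations of a KCNJ8 with an ABCC9 probe ran from -0.39 to 0.42 with a median of -0.06, and 5 of them were above 0. Over the pair differences the KCNJ8 combinations ran from 0.01 to 0.96, the ABCC9 combinations from 0.58 to 0.94 and the mixed ones from -0.04 to 0.71, with 14 of 15 above 0, so the kinds of combination overlapped there too. These correlations share their 12 hearts and their probes and are given as a description.

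**Figure D4:**
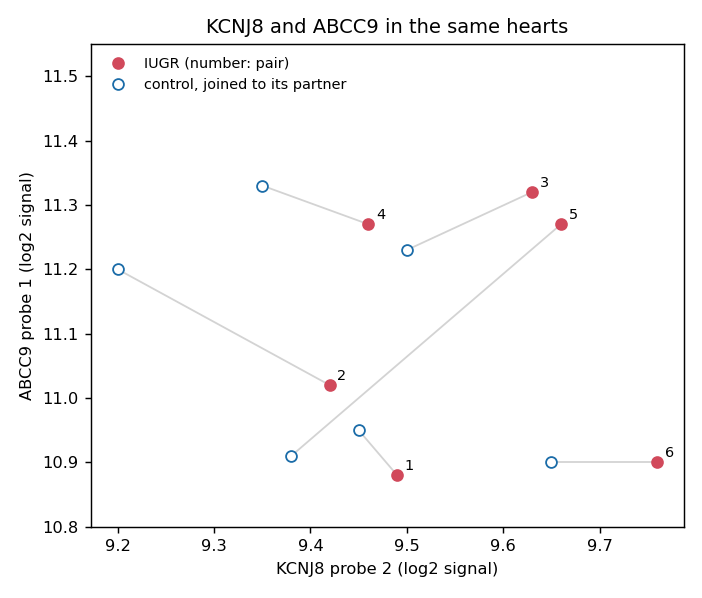
ABCC9 probe 1 against KCNJ8 probe 2 (log2 signals) in the 12 hearts; filled points are IUGR hearts numbered by pair, open points are controls, and grey lines join partners. Every IUGR heart lies to the right of its partner, while the vertical direction differs between pairs, and over all 12 hearts r was -0.18.

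The other genes of the channel family, KCNJ11 for the Kir6.2 pore and ABCC8 for the SUR1 receptor, had no named probe and are not analysed here. Of 14 other inward rectifier genes, 2 were measured and neither passed the test. KCNJ2, which encodes the Kir2.1 pore that holds the resting potential of ventricular muscle, differed by -0.03 ± 0.33, and from -0.13 to 0.07 when a pair was left out. KCNJ12, which encodes the related Kir2.2 pore, differed by -0.94 ± 1.61 at percentile 27.7 of the probe levels, and by -0.33 without pair 2. CFTR, the chloride channel of the ABCC family, was the only measured gene of 10 other ABCC genes. It differed by -1.18 ± 1.94 at percentile 19.2, and by -0.45 without pair 5 (limma adjusted p = 0.982 for KCNJ12 and CFTR).

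Of 83 other potassium channel subunits, 17 were measured, 13 with a mean difference above 0 and 4 below, and 0 passed the adjusted threshold. Their median difference was 0.09, against 0.01 over the 591 named genes, of which 305 were above 0 and 286 below. In limma 2 of the 17 had an unadjusted p under 0.05, KCNIP2 (higher) and KCNB2 (lower), against 24 of the 591 named genes. Of the 17, 14 lay below the median probe level. KCNMB1, the accessory subunit of the calcium-activated potassium channel in smooth muscle, was higher by 0.21 ± 0.27 in 6 of 6 pairs, with 8.66 in IUGR and 8.45 in control ventricles (exact sign-change p = 0.03125, limma adjusted p = 0.982), and by 0.13 without pair 5. It is among the 4 subunits with the smallest limma p of the 17, and its exact p is not adjusted for that choice. KCNIP2, which shapes the transient outward current of heart muscle, differed by 0.55 ± 0.57 in 4 of 6 pairs, and KCNA1, a voltage-gated pore, by 0.29 ± 0.42 in 5 of 6 pairs, or by 0.16 without pair 4. KCNB2, another voltage-gated pore, was lower in 5 of 6 pairs with a difference of -0.61 ± 0.64, and -0.38 without pair 6. The KCNA1 and KCNB2 probes were dim, at percentiles 7.34 and 37 of the probe levels. Among all potassium channel genes measured, the SD over pairs was smallest for KCNJ8, at 0.08, and next for ABCC9, at 0.19. Brighter probes have smaller SDs in this table, with a median of 0.304 at or above the median level and 0.493 over all probes.

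**Figure D5:**
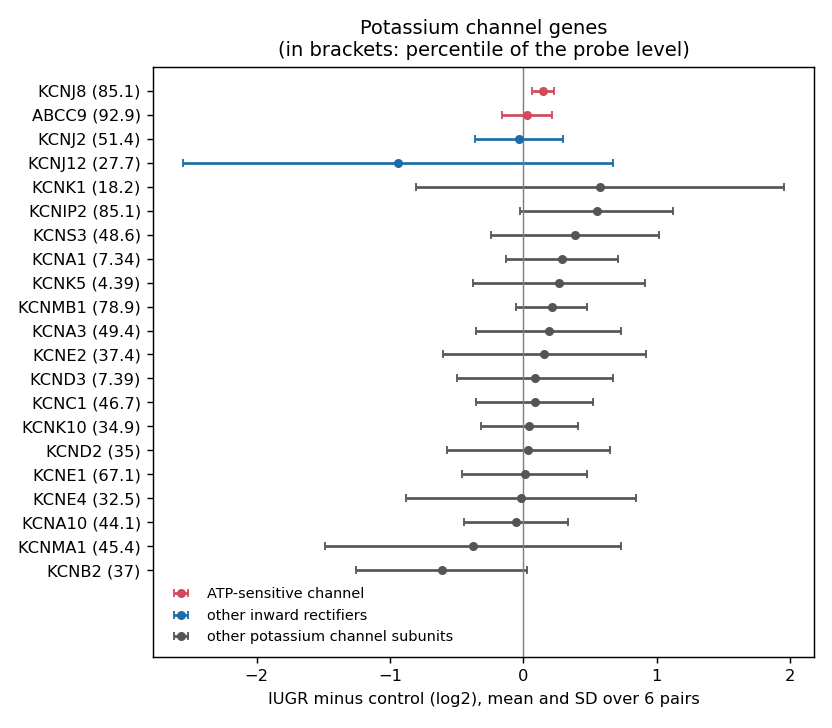
IUGR minus control (log2) of KCNJ8, ABCC9, 2 other inward rectifiers and 17 other potassium channel subunits; points are means and whiskers the SD over 6 pairs, and the number in brackets is the percentile of the probe's level among all probes. KCNJ8 has the shortest whiskers, 0.08, and the dim probes such as KCNJ12 the longest.

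The channel reads the nucleotides that energy metabolism sets, and 7 of 25 genes of that machinery were measured: 6 had a mean difference above 0, 0 passed the test, and the median was 0.13. LDHA, a lactate dehydrogenase, differed by 0.40 ± 0.51, ENO3, an enolase, by 0.40 ± 0.75, ALDOA, an aldolase, by 0.20 ± 0.26, and SLC25A4, the mitochondrial ADP/ATP carrier, by 0.13 ± 0.37. LDHA was higher in 5 of 6 pairs, and ENO3, ALDOA and SLC25A4 were each higher in 4 of 6. Leaving out a pair moved ENO3 to between 0.23 (without pair 5) and 0.63 (without pair 3), and SLC25A4 to between 0.05 (without pair 4) and 0.23 (without pair 2). Of 31 kinases, receptors and other proteins that act on the channel, 11 were measured, 5 higher and 6 lower, with 0 past the test. HIF1A, an oxygen-regulated transcription factor, differed by -0.22 ± 0.37 and was lower in 5 of 6 pairs, with -0.12 without pair 2 and -0.35 without pair 6. PRKCA, a protein kinase C, differed by 0.41 ± 0.81 in 5 of 6 pairs, with 0.14 without pair 6 and 0.62 without pair 4. The other protein kinase C named here, PRKCE, differed by 0.90 ± 1.87, with 0.17 without pair 5. ADORA2B, an adenosine receptor, differed by 0.34 ± 0.74, with 0.19 without pair 1 and 0.56 without pair 2. Only 2 of 5 PRKCE probes and 1 of 2 ADORA2B probes, counting the brightest, had a mean difference above 0. The brightest probes of PRKCA, PRKCE and ADORA2B lay below the median level, at percentiles 38.3, 37.7 and 49.4. HIF1A, PRKCA, PRKCE and ADORA2B each had a limma adjusted p of 0.982.

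KCNJ8 and ABCC9 are known as markers of mural cells, so other markers of vessel wall cells were read in the same hearts. In bulk tissue, a change in the number of cells of a type and a change in RNA per cell cannot be told apart. Of 18 mural markers only 3 were measured, and the pericyte markers PDGFRB, RGS5 and CSPG4 were not among the named probes. TAGLN, a smooth muscle actin-binding protein, was higher by 0.50 ± 0.43 in 5 of 6 pairs, with 9.22 in IUGR and 8.72 in control ventricles (exact sign-change p = 0.0625, limma adjusted p = 0.982). CALD1, caldesmon, differed by -0.02 ± 0.19, with 3 pairs each way, and by 0.04 without pair 1. MYH11, the smooth muscle myosin heavy chain, was lower in 5 of 6 pairs with a difference of -0.55 ± 0.92 (-0.37 without pair 1, -0.87 without pair 3), but its only probe lay at percentile 26.3 of the probe levels. The mean level of the 3 markers ran from 7.56 to 8.31 in IUGR and from 7.74 to 8.20 in control hearts. The mural markers thus went different ways, and their part in the KCNJ8 values was not tested.

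Markers of other cells were read by list. Endothelial markers had 6 of 18 measured, 3 higher and 3 lower, with a mean level of 5.97 to 6.57 in IUGR and 5.91 to 7.33 in control hearts. Cardiomyocyte markers had 5 of 21 measured, 3 higher and 2 lower, at 11.48 to 11.66 in IUGR and 11.11 to 11.81 in control hearts. Erythroid markers had 3 of 13 measured, all 3 higher, at 13.87 to 14.50 in IUGR and 13.62 to 14.19 in control hearts. HBA, the alpha chain of haemoglobin, was named after its values were seen, and lay between 14.44 and 15.39 in IUGR and between 13.65 and 14.91 in control hearts. The groups overlapped, and the difference was 0.41 ± 0.31 with 6 of 6 pairs higher (limma adjusted p = 0.982), or 0.31 to 0.48 when a pair was left out. No exact p is given for HBA, because it was picked for these values. Its part in the KCNJ8 values was not tested. The erythroid and atrial lists (3 of 8 measured) were the ones with every measured marker higher, although the groups overlapped for each. The atrial list ran from 7.63 to 11.07 in IUGR and from 7.17 to 9.30 in control hearts. Fibroblast (2 of 12), leukocyte (3 of 14), lung (2 of 6) and skeletal muscle fibre markers (5 of 9) had median differences of -0.03, 0.10, 0.01 and 0.17. The liver list (6 of 12 measured) had 1 higher and 5 lower, at 3.95 to 5.65 in IUGR and 4.48 to 7.14 in control hearts. In these lists 0 genes passed the adjusted threshold in limma, and their part in the KCNJ8 and ABCC9 values was not tested.

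For each subunit the 5 most similar genes were taken by Pearson r of the brightest probes over the 12 hearts, among 340 other named genes at or above the median probe level. For KCNJ8 these were ST7 (r = 0.85), KDR (0.76), the endothelial receptor for vascular endothelial growth factor, LDHA (0.75), PFKP (0.74), a phosphofructokinase, and ALDOA (0.72). They were picked for these values out of 340, so no p is given. Of these, ST7 differed by 0.15 ± 0.13 (5 of 6 pairs higher), KDR by 0.43 ± 0.30 (6 of 6) and PFKP by 0.12 ± 0.26 (4 of 6), or by 0.04 without pair 2. Over the 6 pair differences alone, r with KCNJ8 was 0.71 for ST7, 0.22 for KDR, 0.73 for LDHA, 0.72 for PFKP and 0.53 for ALDOA.

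For ABCC9 the most similar genes were SPP1 (r = 0.86), which encodes osteopontin, CD4 (0.83), a surface protein of helper T cells and macrophages, AMHR2 (0.80), the receptor of anti-Müllerian hormone, TMEM109 (0.79), a membrane protein, and GJA5 (0.79), the gap junction protein connexin of atria, conduction tissue and arterial endothelium. SPP1 differed by -0.41 ± 1.13, CD4 by 0.10 ± 0.52, AMHR2 by -0.16 ± 0.33, TMEM109 by -0.03 ± 0.18 and GJA5 by 0.14 ± 0.34. Leaving out a pair took SPP1 to between -0.68 and -0.15, CD4 to between -0.05 and 0.22, AMHR2 to between -0.25 and -0.07, TMEM109 to between -0.08 and 0.03, and GJA5 to between 0.05 and 0.21. None of the 5 was regular over pairs, with 2 to 4 pairs higher in each. Over the 6 pair differences, r with ABCC9 was 0.85 for SPP1, 0.43 for CD4, 0.65 for AMHR2, 0.47 for TMEM109 and 0.75 for GJA5. Neither list held the other subunit: ABCC9 stood at rank 254 of 340 for KCNJ8, and KCNJ8 at rank 238 of 340 for ABCC9. These ranks are over the 12 hearts. Over pair differences the subunits gave r = 0.54, which rested on single pairs. ABCC9 probe 1 averaged 11.01 in pairs 1 and 2, 11.29 in pairs 3 and 4 and 10.99 in pairs 5 and 6. The part of these sets in the correlations was not tested.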

How the data were processed

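The authors deposited log2 probe signals of 12 single-colour arrays, processed with RMA per the submitters' processing notes. Base 2 was inferred from the highest value, 15.83, and the sorted arrays differed by at most 0.13 at any rank, so a shift common to most transcripts is removed. The sources used here give no scanner software, background method or probe filter, and detection flags were not used. Values were used as deposited. Symbols came from the platform annotation for 1673 of 43603 probes (3.84%) and were updated through RefSeq accessions, symbols and synonyms. A gene's brightest probe stands for it. IUGR and control were compared with limma 3.58.1 in R 4.3.3 (lmFit, eBayes, two-sided, pair as a fixed block), with Benjamini-Hochberg adjustment over all probes, and the fit was tested on simulated data. The numbers pair the samples, since deviations from group means correlated at 0.129 to 0.254 within pairs. Single values were tested by exact sign changes, and correlations by permutation (100000 resamples, or all 720 pairings for 6 pairs). The genes named are the members, up to 4 of each pathway list by smallest p, the mural markers, HBA (added after its values were seen) and the 5 genes most like each member. The members and lists were chosen with earlier results of these data known. Precision is set by the number of pairs (median limma standard error 0.191).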

Additional observations from a re-analysis of the deposited data

Results flagged for a closer look

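Each group of 6 hearts was screened with Dixon's test for a heart far from the others, over the 8 member probes and the brightest probes of the other named genes. Of 70 groups, 6 had such a heart, where chance gives about 3.5. None of them was a group of a KCNJ8 or ABCC9 probe. For KCNJ12, control replicate 2 had a signal of 6.71, far above the range of 2.00 to 3.39 in the remaining controls. KCNB2 reached 5.13 in control replicate 6, above a range of 2.82 to 3.49. CFTR had such a heart in both groups, at 2.72 in IUGR replicate 2 above a range of 1.96 to 2.10, and at 6.90 in control replicate 5 above a range of 1.89 to 3.48. PRKCE reached 7.69 in IUGR replicate 5, above a range of 2.47 to 3.77. ADORA2B was low in IUGR replicate 4, at 4.06 below a range of 4.64 to 4.98.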

How the results depend on the processing

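The KCNJ8 difference kept its direction and stayed short of the threshold in all 12 alternatives, from 0.12 (without pair 5) to 0.17 (without pair 1), with an adjusted p of at least 0.897. Without the replicate block it was 0.15 with an adjusted p of 1, and the block changed no call. With an intensity trend and robust prior the unadjusted p was 0.0886, and with dim probes dropped 0.0801. No probe passed the adjusted threshold in any limma alternative, with 624 to 1980 at an unadjusted p under 0.05. ABCC9 ran from -0.04 without pair 5 to 0.07 without pair 2. Its probe 2 was -0.03 without pair 5, and its probe 3 ran from -0.08 to 0.05 (without pair 2 or 4). The gap between the subunits ran from 0.07 (without pair 2) to 0.16 (without pair 5). Their correlation over hearts, -0.18, ran from -0.40 to 0.20 when a pair was left out, and was 0.38 with pair means subtracted and 0.12 without the 2 farthest hearts. That over pair differences, 0.54, ran from -0.38 (without pair 5) to 0.96 (without pair 2). Signs also turned, over these ranges, for CALD1 (-0.06 to 0.04, with 0.00 without pair 2), CD4 (-0.05 to 0.22), KCNJ2 (-0.13 to 0.07, with 0.01 without pair 4) and TMEM109 (-0.08 to 0.03) when a pair was left out. The cause of these shifts was not tested. With 5 pairs the exact sign-change test cannot go below 0.0625.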
